A study of Homo sapiens with 6 samples.

Results

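Older LINE-1 (L1) loci, as the term is used here, are the copies of the L1 retrotransposon outside its L1HS and L1PA subfamilies. They were taken as every transposable element (TE) locus of the L1 family whose subfamily is neither L1HS nor named L1PA, and that had reads in at least 1 of the 6 libraries. This rule gave 122584 of 723309 TE loci of the LTR, LINE, SINE and DNA classes, in 114 subfamilies. The rule goes by name and not by age, and most of these loci are old, but a few subfamilies such as L1P1, with a median divergence from consensus of 4.5%, are as little diverged as L1PA. A read on the strand in which the element itself runs is called own strand. Of these loci, 55096 had own-strand reads and 67488 had opposite-strand reads only. RNA came from SW480, an established human colon adenocarcinoma line, kept in culture as stable lines under selection antibiotics. The control lines carried a lentiviral pLENTI CMV construct for the fluorescent protein Clover (3 libraries), and the Z18trunc lines carried the same kind of construct for a truncated form of ZC3H18, a nuclear RNA surveillance factor (3 libraries). The CMV promoter is a strong viral promoter, the construct is expressed beside the cells' own ZC3H18 gene, and per the study's methods the lines were made in biological triplicate. The comparison asks whether RNA from these elements differs when truncated ZC3H18 is present.

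L1 is an autonomous retrotransposon. A complete copy carries its own promoter at the 5′ end, open reading frames for an RNA-binding protein and for an endonuclease with reverse transcriptase, and an A-rich 3′ end with a weak polyadenylation signal. Copying starts at the 3′ end of the RNA and often stops early, so most genomic copies lack the 5′ end and its promoter. L1PB and the other L1P elements are primate lineages, L1M elements are older mammalian lineages, and HAL1 is an ancient relative that lacks the second reading frame. Many sit in introns and in the untranslated ends of messenger RNAs, where they are copied as part of the host transcript.

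To show the elements behind the locus results, the sequence is given for loci among those with the smallest p-values between the groups. The last bases of 4 such loci that overlap no annotated exon are printed 5′ to 3′ on the strand of the element (hg38 reference), with each AATAAA, the main polyadenylation signal, in capitals. They are a locus of subfamily L1M4 (chr2:111254210-111254509, minus strand), of L1M5 (chr12:3340020-3340319, minus strand), of HAL1M8 (chr6:166982034-166982333, minus strand) and of L1MC4 (chr13:110838554-110838853, plus strand).
L1M4: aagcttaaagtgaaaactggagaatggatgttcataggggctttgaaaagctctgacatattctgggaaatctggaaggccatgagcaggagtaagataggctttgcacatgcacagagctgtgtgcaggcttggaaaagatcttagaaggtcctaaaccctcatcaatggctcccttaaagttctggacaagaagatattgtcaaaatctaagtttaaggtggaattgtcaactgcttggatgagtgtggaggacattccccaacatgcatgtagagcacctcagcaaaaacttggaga
L1M5: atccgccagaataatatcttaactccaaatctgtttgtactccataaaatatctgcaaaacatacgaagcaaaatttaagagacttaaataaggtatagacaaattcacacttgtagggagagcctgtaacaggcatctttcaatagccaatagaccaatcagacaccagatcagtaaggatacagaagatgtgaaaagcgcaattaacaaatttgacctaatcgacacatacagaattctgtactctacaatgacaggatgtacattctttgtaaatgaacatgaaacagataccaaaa
HAL1M8: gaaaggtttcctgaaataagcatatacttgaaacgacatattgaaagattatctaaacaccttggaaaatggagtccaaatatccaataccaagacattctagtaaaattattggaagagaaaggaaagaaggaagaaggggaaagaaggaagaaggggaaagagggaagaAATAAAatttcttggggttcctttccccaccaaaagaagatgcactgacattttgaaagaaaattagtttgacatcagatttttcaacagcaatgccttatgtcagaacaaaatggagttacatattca
L1MC4: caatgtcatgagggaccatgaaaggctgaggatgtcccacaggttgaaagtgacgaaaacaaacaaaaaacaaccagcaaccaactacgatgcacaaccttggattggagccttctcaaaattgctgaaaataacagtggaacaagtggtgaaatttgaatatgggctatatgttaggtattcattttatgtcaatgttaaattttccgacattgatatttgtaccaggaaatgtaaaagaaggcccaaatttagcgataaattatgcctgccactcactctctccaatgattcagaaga
The HAL1M8 stretch was 42% A and held AATAAA at 1 place, 129 bases from the end of the locus. The letters were not found in the other stretches, which were 32.3% A in L1M4, 41.3% in L1M5 and 36.3% in L1MC4.

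As a family, older L1 copies were A-rich, short and worn. The median locus was 341 bp long (quartiles 188 and 629 bp) and differed from its consensus at 22.7% of positions (quartiles 17.7% and 26.6%). L1HS and L1PA loci had a median length of 1476 bp and a median divergence of 5.4%, and loci of L2, a still older LINE family, had 222 bp and 30.6%. The median base content of older L1 loci was 39.4% A and 25.4% T on their own strand, with a GC content of 34.2%. AATAAA stood in the last 100 bases of 22.7% of the 115898 older L1 loci of at least that length, read on the own strand, and of 6.44% read on the other strand. For L1HS and L1PA the own-strand share was 50.2%, and for L2 13.1%. Within older L1 it ranged from 18.5% in HAL1 to 30.3% in L1PB.

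The libraries held between 18226033 and 22463310 aligned fragments. The mean ZC3H18 level in Clover was 57.2 ± 5.39 TPM (length-scaled transcript abundance in the deposited gene tables), against 763 ± 31.2 TPM with Z18trunc (SD, n = 3 each), a log2 difference of 3.72 (limma adjusted p = 3.2e-05). Of 12 colon epithelium markers, 9 reached a mean of 1 TPM, and their summed level was 23675 to 25255 TPM in Clover and 23254 to 24376 TPM in Z18trunc, while KRT20, CDX1 and LGR5 were listed at 0. Of the markers of other cell types, 2 of 6 for melanocytes, 1 of 6 for fibroblasts, 1 of 5 for leukocytes and 0 of 3 for endothelium reached 1 TPM, and no such list summed to more than 5.09 TPM in any library. In bulk RNA of this kind, more cells that use a locus and more RNA per cell cannot be told apart.

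Own-strand RNA from older L1 was higher in Z18trunc by a margin close to the spread between libraries. Scaled to CPM (estimated counts over aligned fragments, times 1000000), they summed to 3015, 3135 and 2773 in the Clover libraries and to 3148, 3359 and 4049 in the Z18trunc libraries. The groups did not overlap, but the lowest Z18trunc library lay only just above the highest Clover library, and the third Z18trunc library stood well above all others. The difference between the group means of log2 CPM was 0.24, with CPM means of 2974 ± 185 and 3519 ± 471 (SD, n = 3). The exact two-sided permutation p was 0.1, the smallest that 3 against 3 libraries can give. Without the third Z18trunc library the log2 difference was 0.13. Older L1 supplied 12.5% ± 0.43 of own-strand TE counts in Clover and 13.1% ± 1.01 in Z18trunc (SD, n = 3), which overlapped (exact permutation p = 0.5). As a share of LINE counts it was 50.9% ± 1.27 and 51.1% ± 1.41 (SD, n = 3).

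Reads on the opposite strand of the same loci were higher in Z18trunc too. Most of them came from loci in genes that run against the element, with a mean of 2796 of 3678 CPM in Clover, so they are largely RNA of the gene strand and not a background level. They summed to 3972, 3607 and 3456 CPM in Clover and to 3978, 4354 and 4536 CPM in Z18trunc, a log2 difference of 0.22 (exact permutation p = 0.1) without overlap. The log2 ratio of own to opposite strand averaged -0.31 ± 0.098 (Clover) and -0.29 ± 0.112 (Z18trunc, SD, n = 3). It differed by 0.014 and the groups overlapped (exact permutation p = 0.8), so no strand-specific difference was detectable. In each library, older L1 loci gave more opposite-strand than own-strand RNA.

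The difference in older L1 was set beside that of other LINE groups. L1HS and L1PA differed by 0.33 and L2 by 0.19 on the log2 scale, on the own strand, each without overlap. The log2 ratio of older L1 to L1HS and L1PA was 2.08, 2.13 and 2.06 in Clover and 2.04, 2.03 and 1.92 in Z18trunc, which did not overlap. Its difference was -0.092 (exact permutation p = 0.1), and it overlapped without loci that share fragments with other loci (-0.043, exact permutation p = 0.3). Without the third Z18trunc library it was -0.052. The ratio of older L1 to L2 differed by 0.05 and overlapped (exact permutation p = 0.6). Loci with reads in part shared with other loci, inferred from the counts, held 8.73% to 11.1% of own-strand counts in older L1. They held 39.7% to 47.2% in L1HS and L1PA and 8.16% to 9.91% in L2.

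**Figure D1:**
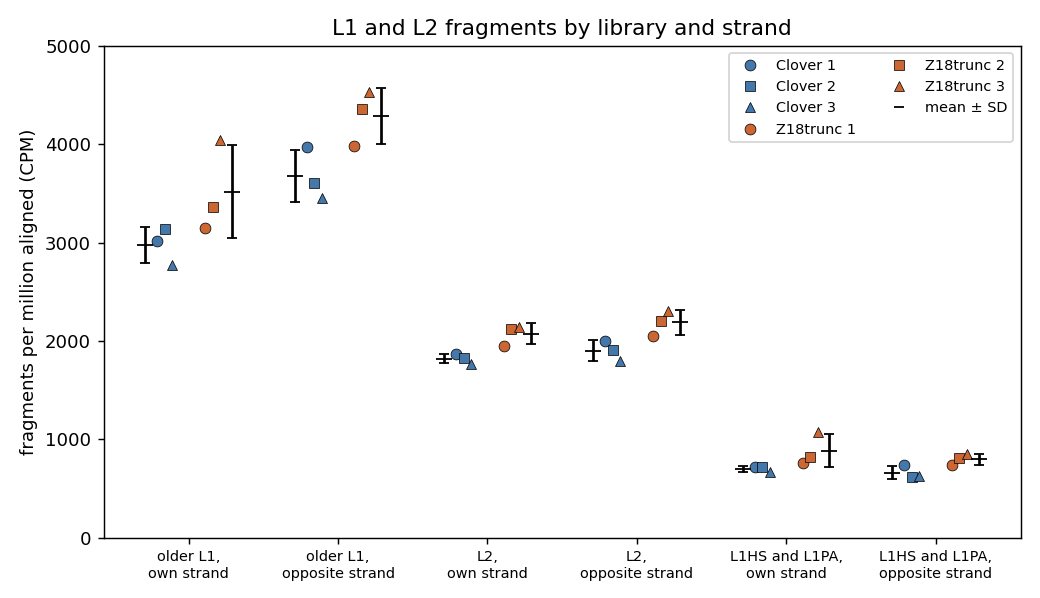
Scaled fragments (CPM, y axis) summed over older L1, L2, and L1HS and L1PA loci on each strand, 1 point per library, with the group mean and SD as a bar beside the points. The older L1 sums of the 3 Z18trunc libraries lay above those of the 3 Clover libraries on both strands, with the closest own-strand values at 3135 and 3148 CPM.

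Most of this RNA followed the strand of the surrounding gene. Of the 122584 loci, 35864 lay in a gene that runs the same way, 57348 only in a gene that runs the opposite way and 29372 outside genes. Inside genes, counting both strands of the element, 91.9% ± 0.12 of older L1 counts in Clover and 92.2% ± 0.08 in Z18trunc (SD, n = 3) lay on the strand of the gene. The share was 0.26 percentage points higher in Z18trunc, without overlap (exact permutation p = 0.1). Loci in same-strand genes supplied 70.5% ± 0.39 of the own-strand counts in Clover and 70.7% ± 0.3 in Z18trunc, and loci outside genes 22.1% ± 0.42 and 22.3% ± 0.2 (SD, n = 3). Outside genes and exons, where no host strand is annotated, the log2 ratio of own to opposite strand averaged 0.13 ± 0.073 (Clover) and 0.15 ± 0.124 (Z18trunc, SD, n = 3, exact permutation p = 0.9).

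The size of the difference was not detectably different inside and outside genes. Own-strand sums of loci outside genes were 682, 685 and 609 CPM in Clover and 704, 753 and 892 CPM in Z18trunc, a log2 difference of 0.24. Those of loci in same-strand genes were 2111, 2215 and 1961 CPM and 2221, 2366 and 2874 CPM, also 0.24. Neither set overlapped between groups, and the log2 ratio of outside to inside differed by 0.0043 (exact permutation p = 0.9) between groups that overlapped. Loci only in opposite-strand genes gave the smallest own-strand sums, 222, 235 and 203 CPM and 223, 240 and 282 CPM, which overlapped (log2 0.17, exact permutation p = 0.2). Within same-strand genes, the 2913 exonic loci differed by 0.19 on the log2 scale without overlap (927 ± 19.5 and 1060 ± 109 CPM) and the 32951 intronic loci by 0.28 with overlap (1169 ± 109 and 1427 ± 234 CPM, SD, n = 3). The log2 ratio of intronic to exonic counts was 0.33 ± 0.107 and 0.42 ± 0.085 (SD, n = 3), which overlapped (exact permutation p = 0.5).

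**Figure D2:**
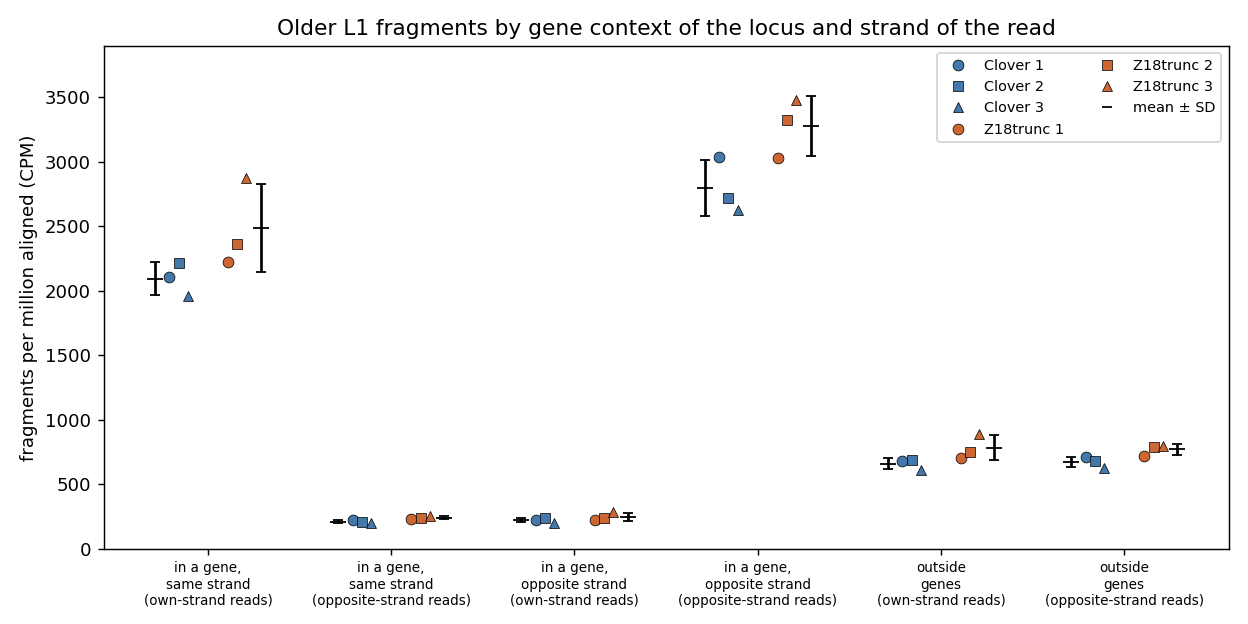
Older L1 fragments (CPM, y axis) by gene context of the locus and strand of the read, 1 point per library, with mean and SD beside the points. Own-strand reads dominate in same-strand genes and opposite-strand reads in opposite-strand genes, while outside genes the strands are close, with Clover means of 659 and 673 CPM.

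The RNA was spread thinly over a great many copies. In single libraries, between 17348 and 20709 older L1 loci had own-strand counts in Clover and between 19281 and 24483 in Z18trunc, where the third library had the most. Only 3817 loci were seen in all 6 libraries, and 27144 in a single one. Between 52.2% and 56.6% of the loci seen in a library held at most 1 fragment. At equal depth, the number of loci expected was 18398, 18709 and 16624 in Clover and 18345, 19281 and 22699 in Z18trunc, which overlapped (exact permutation p = 0.3). The 10 most abundant loci held 7.74% ± 0.57 of own-strand counts in Clover and 6.79% ± 0.08 in Z18trunc (SD, n = 3), without overlap (exact permutation p = 0.1).

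By lineage, the Z18trunc mean was above the Clover mean in each group of subfamilies. L1ME was the largest group, with 41273 loci in 27 subfamilies and a median divergence of 25.4%, and its own-strand counts were 908, 921 and 825 CPM in Clover and 934, 1005 and 1180 CPM in Z18trunc. L1MB gave 437, 467 and 404 CPM and 461, 479 and 568 CPM. These L1MB values overlapped, while the L1ME values did not. L1MC gave 392, 384 and 348 CPM and 405, 440 and 515 CPM, again without overlap.

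The L1P groups are much smaller and younger. The 3585 L1PB loci had a median divergence of 11.6% and a median length of 715 bp, and gave 113, 125 and 113 CPM in Clover and 124, 131 and 177 CPM in Z18trunc. The first Z18trunc library lay below the second Clover library, and the third Z18trunc library stood above the rest. The other L1P subfamilies, with 2486 loci, gave 66.3, 65.8 and 62 CPM and 71, 77.7 and 97.5 CPM, without overlap. HAL1 gave 135, 142 and 126 CPM and 144, 153 and 183 CPM, without overlap.

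Across the 9 lineage groups drawn, log2 differences ran from 0.2 in L1MB to 0.33 in the other L1P subfamilies. L1P and L1M elements were then set against each other directly, and the log2 ratio of their sums differed by 0.069 between groups that overlapped (exact permutation p = 0.3). By divergence, loci of at most 17.7% differed by 0.26 and loci above 26.6% by 0.2 on the log2 scale. The shortest loci, of at most 188 bp, differed by 0.21 and the longest, above 629 bp, by 0.29.

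**Figure D3:**
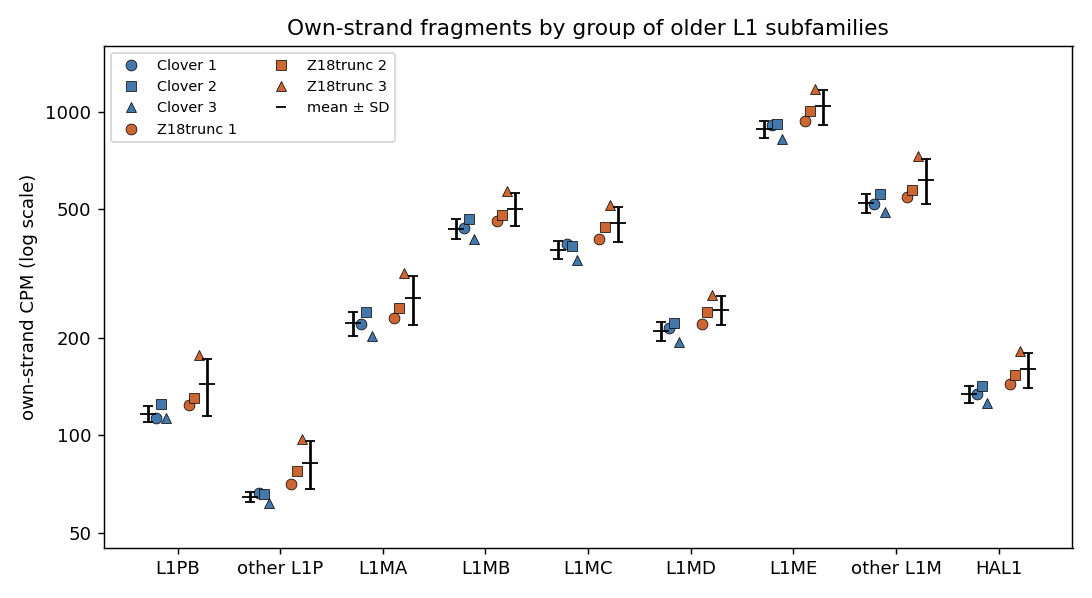
Own-strand CPM (y axis, log scale) of 9 groups of older L1 subfamilies, 1 point per library, with mean and SD beside the points. The third Z18trunc library is the highest in every group shown, and the groups of libraries overlap in L1PB, L1MA, L1MB, L1MD and other L1M.

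Subfamily sums were tested with edgeR's quasi-likelihood test and Benjamini-Hochberg adjustment over all 898 TE subfamilies with at least 30 counts, of which 1.89% were called. Of 110 older L1 subfamilies tested, 1 was called and 107 lay above 0, against 84.3% of all TE subfamilies. Before adjustment, p was under 0.05 for 50 subfamilies higher in Z18trunc and for 0 lower ones, against 24.6% and 0.0% of all TE subfamilies. These counts depended on the scaling. Under TMM 81 of the 110 lay above 0, with 3 higher and 0 lower before adjustment, and under scaling to opposite-strand TE counts outside exons 40 (36.4%) lay above 0, with 1 higher and 2 lower. Without the third Z18trunc library 15 were higher, and without the third Clover library 19. The median log2 difference was 0.26 in older L1 and 0.21 in all TE subfamilies. Without the third Z18trunc library the medians were 0.141 and 0.143, so that the excess of older L1 (0.042) turned to -0.0023, and without the third Clover library it was 0.014. In 37 of the 110, all 3 Z18trunc libraries lay above all 3 Clover libraries, as in 27.7% of all TE subfamilies.

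The called subfamily was L1PBa1, a small L1PB lineage of 69 loci. Its own-strand counts were 1.47, 1.99 and 1.27 CPM in Clover and 2.76, 2.52 and 3.38 CPM in Z18trunc. The groups did not overlap, and L1PBa1 rose by 0.88 on the log2 scale (SE 0.23, edgeR adjusted p = 0.046). This call was at the edge of the threshold and was lost without any 1 of the Clover libraries (adjusted p 0.063 to 0.17) and without the third Z18trunc library (adjusted p = 0.099). It was also lost under TMM scaling (edgeR adjusted p = 0.18), under scaling to opposite-strand TE counts (0.26) and with a replicate block (0.059).

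The 5 most abundant subfamilies each lay above 0 without passing the test. L1M5 gave 176, 175 and 164 CPM in Clover and 185, 198 and 231 CPM in Z18trunc (log2 0.25, SE 0.083, edgeR adjusted p = 0.085). L1MB7 gave 120, 126 and 110 CPM and 128, 133 and 160 CPM (log2 0.25, SE 0.09, edgeR adjusted p = 0.11), and L1ME1 109, 111 and 95.4 CPM and 113, 118 and 146 CPM (log2 0.25, SE 0.096, edgeR adjusted p = 0.11). None of these 3 overlapped between groups. L1ME4a (log2 0.17) and L1M4c (log2 0.16) overlapped, and both lay below 0 under TMM scaling. L1M4c is a case of its own, because the locus in MALAT1 described below supplies most of its counts, 54.9 of 88.1 CPM in the first Clover library.

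Single loci were tested in the same way, over 12453 TE loci with at least 30 own-strand counts over the 6 libraries, of which 0.201% were called. Of the 55096 older L1 loci with own-strand counts, 1825 reached that minimum, and they held between 48.9% and 53% of the own-strand counts. The others were too sparse to test. Only 2 loci were called, both with more RNA in Z18trunc, a direction that made up 0.177% of all TE loci. Before adjustment, p was under 0.05 for 176 higher loci (9.64%) and 19 lower loci (1.04%), against 8.17% and 1.77% of all TE loci.

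The tested loci as a whole lay above 0, by an amount that depended on the scaling. With aligned fragments as library size, 1301 of 1825 (71.3%) lay above 0, against 64.5% of all TE loci, with a median log2 difference of 0.28 against 0.17. TMM scaling, which centres the fold changes on the typical locus, gave medians of 0.11 for older L1 and 0.0014 for all TE loci, and 87 higher and 38 lower loci before adjustment. Scaling to opposite-strand TE counts outside exons gave -0.0031 and -0.11, with 53 higher and 63 lower. Relative to the median of all TE loci, older L1 lay 0.1 higher under each of these 3 scalings. A change of scaling shifts all loci by nearly the same amount, so this could hardly differ between them. Without the third Z18trunc library, older L1 lay 0.033 higher. This excess was also smaller without exonic loci (0.04), with no filter on counts (0.043), at a minimum of 10 counts (0.057) and without the third Clover library (0.063).

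Among tested loci, those in introns of same-strand genes (657) had a median log2 difference of 0.31, those overlapping an own-strand exon (720) of 0.24, those outside genes and exons (355) of 0.29 and those only in opposite-strand genes without an own-strand exon (93) of 0.2. By lineage the medians ran from 0.23 in L1PB to 0.35 in the other L1P subfamilies, leaving out X9_LINE with 4 tested loci. Loci that carried AATAAA in their last 100 bases (434) had a median of 0.29, and those of at least 100 bp without it (1348) of 0.27.

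**Figure D4:**
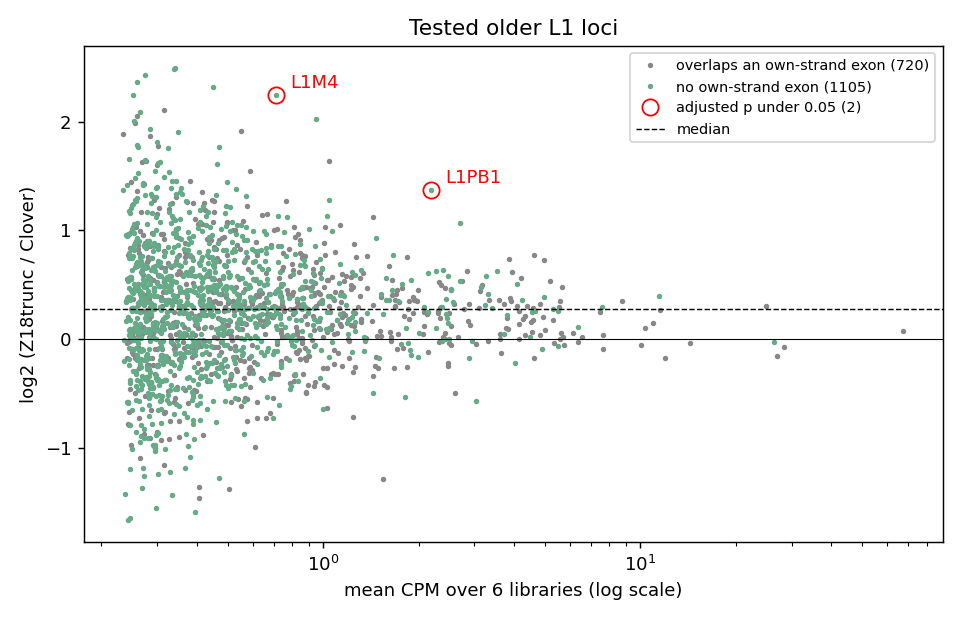
Log2 difference between Z18trunc and Clover (y axis) against mean CPM over 6 libraries (x axis, log scale) for the 1825 tested older L1 loci, coloured by overlap with an own-strand exon. The dashed line is the median of 0.28, and circles mark the 2 called loci, L1PB1 at 1.37 and L1M4 at 2.24.

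The clearest single locus was an L1PB1 copy on the X chromosome (chrX:102912636-102915179, plus strand). It is 2544 bp long with 8.8% divergence and lies within the span of the noncoding gene LINC00630 in the deposited gene tables, where GENCODE 44 has no gene. It held 33, 25 and 17 fragments in Clover and 55, 47 and 94 in Z18trunc, that is 1.47, 1.31 and 0.866 CPM and 2.45, 2.58 and 4.48 CPM. All 3 Z18trunc libraries lay above all 3 Clover libraries, and the locus rose by 1.37 on the log2 scale (SE 0.26, edgeR adjusted p = 0.0087). It shared no fragments with other loci, and no opposite-strand read was seen in any library. The adjusted p was 0.055 under TMM scaling, 0.2 without the third Z18trunc library and 0.083 without the third Clover library.

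This copy is 1 of 5 pieces of L1PB1 that follow each other on the same strand, broken by an AluY inserted between the second and the next piece. The pieces around it gave values that overlapped between groups. The 1278 bp piece just upstream of the AluY gave 1.11, 0.523 and 0.866 CPM in Clover and 0.668, 0.439 and 1.52 CPM in Z18trunc (log2 0.072, SE 0.39). The 1047 bp piece just downstream gave 1.07, 0.889 and 1.38 CPM and 0.757, 0.713 and 1.48 CPM (log2 -0.17, SE 0.33). The last piece, of 350 bp, gave 0.623, 0.314 and 0.255 CPM and 0.0891, 0.11 and 0.381 CPM, and the difference between the pieces was not tested. Without the called piece, older L1 loci in LINC00630 summed to 2.85 ± 0.505 CPM in Clover and 2.92 ± 1.64 CPM in Z18trunc (SD, n = 3). LINC00630 itself was 0.946 ± 0.042 TPM and 1.35 ± 0.198 TPM (SD, n = 3), a log2(TPM + 1) difference of 0.27 (limma adjusted p = 0.099).

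**Figure D5:**
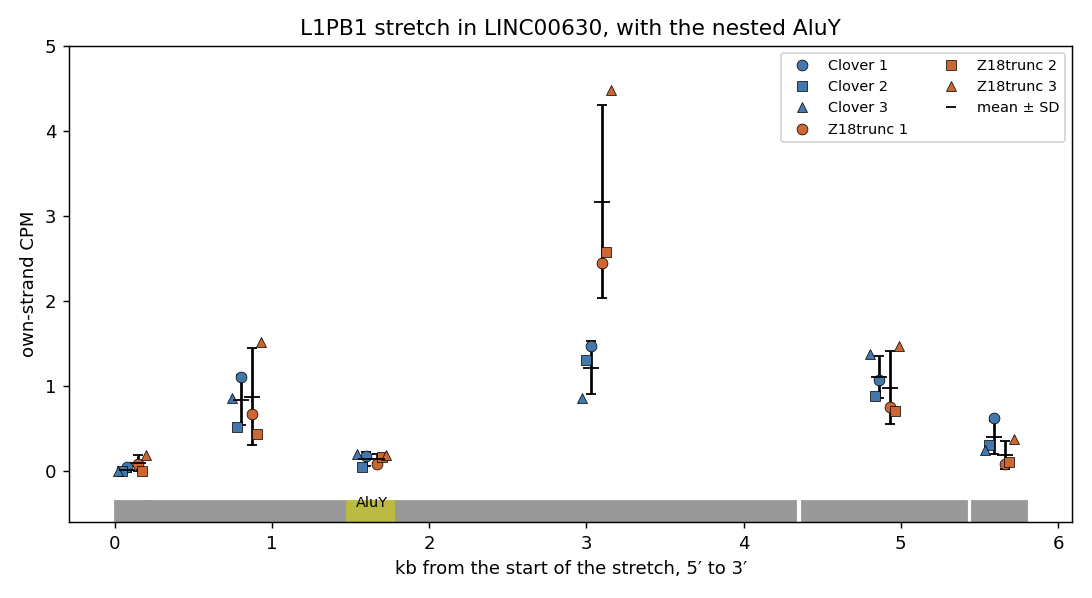
Own-strand CPM (y axis) of the 5 L1PB1 pieces and the AluY along the stretch in LINC00630, plotted at the middle of each piece against the distance in kb from the start of the stretch (x axis), with mean and SD. The bar at the bottom marks the pieces in grey and the AluY in yellow. Only at the 2544 bp piece do the Z18trunc libraries (2.45 to 4.48 CPM) lie above all Clover libraries (0.866 to 1.47 CPM).

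The other called locus was an L1M4 copy in an intron of the noncoding gene MIR4435-2HG (chr2:111254210-111254946, minus strand), 737 bp long with 20.6% divergence. It gave 0.288, 0.347 and 0.102 CPM in Clover and 0.858, 0.971 and 1.7 CPM in Z18trunc. The groups did not overlap, and the locus rose by 2.24 on the log2 scale (SE 0.45, edgeR adjusted p = 0.016). Its reads were in part shared with other loci, and with uniquely mapped counts it was 2.03 higher with an adjusted p of 0.088. The adjusted p was 0.055 under TMM scaling, 0.23 without the third Z18trunc library and 0.097 without the third Clover library.

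MIR4435-2HG held 47 older L1 loci, all with own-strand reads. Of the 22 tested, the called locus among them, 21 lay above 0, with a median log2 difference of 0.51. Before adjustment, 9 of them were higher with p under 0.05. Over all tested older L1 loci 71.3% lay above 0 and 9.64% were higher, and over all TE loci 64.5% and 8.17%. The 22 are copies in 1 gene, looked at because it holds a called locus, and do not count as independent. Without the called locus, the gene's older L1 loci summed to 12.9, 13.8 and 10.5 CPM in Clover and 18.5, 14.7 and 25 CPM in Z18trunc, without overlap. Reads at several of these loci were in part shared with other loci, so their values are in part estimates. The gene's own level was 254 ± 10 TPM and 241 ± 5.46 TPM (SD, n = 3), a log2(TPM + 1) difference of -0.072 (limma adjusted p = 0.53). It was lower in Z18trunc without overlap. This gene lies in a stretch of chromosome 2 (chr2:109929539-111390505, first to last tested locus) in which 31 of 33 tested older L1 loci lay above 0 (median log2 0.56). The stretch holds the called locus and was not chosen independently of these data, so its count is no test of the region. Of the 1792 tested loci elsewhere, 70.9% lay above 0 (median log2 0.27). The 33 loci include the 22 of MIR4435-2HG, so the counts for the stretch and for the gene are not separate results.

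The next loci by p-value did not pass the adjustment. An L1M5 copy in an intron of LOC100128253 (chr12:3340020-3340357, minus strand) gave 0.178, 0.209 and 0.0509 CPM in Clover and 1.02, 0.768 and 0.476 CPM in Z18trunc (log2 2.32, edgeR adjusted p = 0.066). These values rest on 1 to 4 fragments in each Clover library. A HAL1M8 copy outside the deposited gene spans and in an intron of the noncoding gene ENSG00000227598 in GENCODE 44 (chr6:166982034-166982374, minus strand) gave 0.134, 0.0523 and 0.102 CPM and 0.401, 0.823 and 0.524 CPM (log2 2.49, edgeR adjusted p = 0.095). An L1MC4 copy outside genes in both annotations (chr13:110838215-110838853, plus strand) gave 0.0445, 0.209 and 0.0509 CPM and 0.668, 0.604 and 0.476 CPM (log2 2.49, edgeR adjusted p = 0.095). In each of these 3 loci the groups did not overlap, which their choice by small p-values favours. Of all TE loci with at least 30 counts, 12.0% were higher on CPM without overlap. At these 3 loci the Clover libraries were near or below the 0.134 to 0.165 CPM that a count of 0 allows.

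Others of this set were well covered and exonic. An L1MDb copy in CLTC, the clathrin heavy chain gene (chr17:59619923-59620103, plus strand, 5′ UTR of an annotated transcript), gave 4.1, 2.2 and 3.92 CPM in Clover and 5.43, 5.65 and 6.53 CPM in Z18trunc (log2 0.78, edgeR adjusted p = 0.074). CLTC itself was 56.4 ± 5.95 TPM and 83.3 ± 5.06 TPM (SD, n = 3), a log2(TPM + 1) difference of 0.56 (limma adjusted p = 0.077). An L1M4 copy in the 3′ UTR of ZNF146 (chr19:36237515-36237699, plus strand) gave 3.12, 3.03 and 2.55 CPM and 4.14, 4.28 and 6.1 CPM (log2 0.74, edgeR adjusted p = 0.095), with the zinc finger gene ZNF146 at 25.5 ± 2.1 TPM and 35.8 ± 8.84 TPM (SD, n = 3). For CLTC and ZNF146, the element and the host gene were both higher in all 3 Z18trunc libraries. Both elements lie in exons of these genes, so element and gene may count the same transcripts and are not separate observations. ZNF146 had a log2(TPM + 1) difference of 0.45 (limma adjusted p = 0.14).

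The last of these lay in the chromosome 2 stretch. An L1MB4 copy in an exon of MIR4435-2HG (chr2:111319631-111320402, minus strand) gave 0.309, 0.283 and 0.116 CPM in Clover and 0.569, 0.713 and 1.33 CPM in Z18trunc (log2 1.91, edgeR adjusted p = 0.095). An L1PB2 copy of 3705 bp (chr2:109939999-109943703, plus strand) gave 0.379, 0.64 and 0.118 CPM and 1.73, 0.0735 and 2.77 CPM (log2 2.03, edgeR adjusted p = 0.13). The second Z18trunc library was below every Clover library at this L1PB2 copy. The edgeR adjusted p was 0.00083 without that library, but 0.33 without the first Z18trunc library and 0.63 without the third. With single Clover libraries left out it was 0.13 to 0.34. Reads at both copies were in part shared with other loci.

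The loci with the most fragments, a ranking that is not per length, sat mainly in exons of abundant transcripts, and their values mostly overlapped between groups. First came an L1M4c copy in MALAT1, an abundant nuclear noncoding RNA (chr11:65499662-65499925, plus strand), with 54.9, 85.2 and 57.6 CPM in Clover and 59.8, 55.3 and 92.7 CPM in Z18trunc (log2 0.073, SE 0.14). Next were an L1MD copy in the 3′ UTR of ACTN4, an actin crosslinker gene (chr19:38730084-38730185, 29.1 ± 3.79 and 27.7 ± 1.94 CPM), and an L1MB5 copy where the 3′ UTRs of MFSD12 and FZR1 overlap on opposite strands (chr19:3538308-3538752, 28.3 ± 4.19 and 25.5 ± 1.46 CPM, SD, n = 3). An L1ME3A copy in the 3′ UTR of MAVS, an adaptor of cytosolic RNA sensing (chr20:3873829-3874352), gave 14.5 ± 1.3 and 14.2 ± 0.787 CPM, and an L1MD3 copy in the 3′ UTR of SRXN1, the sulfiredoxin gene (chr20:646629-646931), 12.7 ± 2.08 and 11.3 ± 0.419 CPM (SD, n = 3). An L1ME4a copy in the 3′ UTR of DENR, a translation factor gene (chr12:122770057-122770392), gave 10.5 ± 0.909 and 11.5 ± 1.3 CPM (SD, n = 3). All 6 overlapped between groups, with log2 differences from -0.17 to 0.15.

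At 2 others of these loci the groups did not overlap, and neither passed the adjustment. An L1M4c copy at the coding and 3′ UTR sequence of HSP90AA1, a heat shock protein gene (chr14:102083056-102083143), gave 22.9, 21.4 and 22.7 CPM in Clover and 23.6, 26 and 33 CPM in Z18trunc (log2 0.3, edgeR adjusted p = 0.39). The L1PB4 copy on chromosome 1 (chr1:43097166-43099009, plus strand) is the longest of these loci, 1844 bp, and lies outside genes in both annotations. It gave 9.88, 9.88 and 9.98 CPM in Clover and 11.4, 11.2 and 16.3 CPM in Z18trunc (log2 0.39, SE 0.14, edgeR adjusted p = 0.32), with at most 0.157 CPM on the opposite strand. Its nearest same-strand exon in GENCODE 44 lies 5077 bp downstream, in a processed pseudogene. An L1M5 copy on chromosome 9 (chr9:137446691-137446883, minus strand), also outside genes, lies 687 bp past an exon of NSMF and gave 26.7 ± 2.46 and 26.2 ± 1.75 CPM (SD, n = 3), which overlapped.

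Loci were then set beside the genes that hold them. Over 587 tested intronic loci in 398 tested genes, the median log2 difference was 0.31 for the loci, on counts, and 0.23 for their host genes, on log2(TPM + 1). Over 574 exonic loci in 419 genes, it was 0.22 for the loci and 0.2 for the hosts. The locus lay above its host in 325 intronic and 287 exonic cases (55.4% and 50%). These come from different tables and scales, and several loci share 1 host, so no test was made.

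Genes known to silence L1 or to degrade or restrict its RNA were examined as a list of 27 in 5 groups. All 27 reached the mean of 1 TPM needed for the test, 0 were called by limma, against 0.015% of the 13300 genes tested, and 22 lay above 0, against 68.0% of all genes. Before adjustment, p was under 0.05 for 10 higher genes and 0 lower genes, where all genes gave 25.6% and 2.9%. The list's median log2(TPM + 1) difference was 0.24 against 0.11 over all genes, and after quantile normalization 0.094 against -0.006, with 6 higher genes before adjustment. Of the HUSH complex, which silences L1 in chromatin, TASOR was 7.92 ± 1.58 TPM in Clover and 10.3 ± 1.2 TPM in Z18trunc, MPHOSPH8 27 ± 0.51 and 31.6 ± 6.3 TPM, and PPHLN1 24.1 ± 4.72 and 30.8 ± 4.06 TPM (SD, n = 3). The histone methyltransferase SETDB1 was 11.3 ± 1.14 and 13.3 ± 1.2 TPM, and MORC2, a HUSH partner, 21.9 ± 1.68 and 24.2 ± 0.92 TPM (SD, n = 3). TRIM28, the corepressor of KRAB zinc-finger proteins, was 618 ± 28.3 and 581 ± 36.3 TPM (SD, n = 3) and overlapped. Of the nuclear exosome adaptors, the helicase MTREX was 14.7 ± 1.11 and 19.8 ± 4.39 TPM, ZCCHC8 6.21 ± 0.668 and 8.66 ± 0.635 TPM, and RBM7 10.1 ± 0.544 and 13.2 ± 0.465 TPM (SD, n = 3). ZFC3H1, a zinc finger protein of the same pathway, was 3.83 ± 0.875 and 6.02 ± 1 TPM (SD, n = 3). These 4 did not overlap between groups, with limma adjusted p of 0.15, 0.078, 0.077 and 0.092. Their log2(TPM + 1) differences were 0.39, 0.42, 0.35 and 0.55, and 0.24, 0.24, 0.17 and 0.36 after quantile normalization. The remaining adaptors of the list were ZC3H3, at 20.7 ± 1.24 and 20.6 ± 0.769 TPM with overlap, and PABPN1, a poly(A)-binding protein, at 140 ± 3.08 and 151 ± 4.44 TPM (SD, n = 3, limma adjusted p = 0.3) without overlap. In the other groups of the list, TASOR, MPHOSPH8, SETDB1, ATF7IP, CBX1, CBX3, DNMT3A, SAMHD1, ADAR and ZC3HAV1 were also higher without overlap. The other members of those groups overlapped. The share of all genes without overlap was not counted, so these separations cannot be read as a trait of the list. DNMT3A differed by 0.43 on log2(TPM + 1) (limma adjusted p = 0.077) and CBX3 by 0.4 (limma adjusted p = 0.082).

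Loci were also ranked on FPKM, with missing values set to 0. Of the 55096 older L1 loci, 1163 had all 3 Z18trunc values above all 3 Clover values and 576 all below. Together these are 3.16%, where 2.93% of all 362082 TE loci with own-strand reads were separated. Higher loci made up 2.11% in older L1 and 1.92% in all TE loci. Among the 1825 loci with at least 30 counts, 186 were higher and 31 lower on FPKM, where 13.6% of all TE loci of that depth were separated in either direction. On CPM, 241 (13.2%) were higher and 38 lower, against 12.0% and 3.64% of all TE loci of that depth.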

How the data were processed

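Stranded, paired-end polyA RNA-seq of 6 SW480 libraries was analysed, with groups and replicate numbers from the sample titles. The submitters' processing notes name cutadapt 4.6 and hg38, and per the study's methods SQuIRE assigned reads to TE loci. The authors deposited uniquely mapped counts per locus and strand, estimated (expected) counts in which multiply mapped fragments are shared among loci, and FPKM, which divides the estimated count by covered length and aligned fragments. The authors' gene tables give TPM, used as deposited and summed by symbol. In older L1, 94.7% to 95.2% of own-strand entries had an estimated count within 0.01 of the mean of uniquely mapped count and read count. The uniquely mapped count is thus a partial one, 68.5% to 71.9% of the estimated count. The other entries were inferred to share fragments with other loci.

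Estimated counts were rounded and tested with edgeR 4.0.16 (quasi-likelihood, R 4.3.3) at a minimum of 30 counts over 6 libraries, with aligned fragments as library size and Benjamini-Hochberg adjustment over all LTR, LINE, SINE and DNA features. Genes were kept at mean TPM 1 or more and fitted with limma 3.58.1 on log2(TPM + 1), a scale that understates the change of low genes. Exact two-sided permutation tests compared the sums. A count of 0 allows 3 counts, or 0.134 to 0.165 CPM, and such limits cover counting error only, without molecular identifiers. Gene spans came from the deposited tables, leaving out 57 spans over 2500000 bp of symbols placed at several sites (34184 used), and exons from GENCODE 44 with bedtools 2.31.1. The fits were tested on simulated data.

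Named loci were the 10 with the highest mean CPM and the 10 with the smallest p-values, some of which are not reported here, and named subfamilies the 5 most abundant and the called one. Named genes were ZC3H18, host genes and set members of the silencing list. Members and lists were chosen with earlier results of these data known. Alternatives were TMM, DESeq2 1.42.0, scaling to opposite-strand counts, other minimums, uniquely mapped counts, a replicate block, and leaving out exonic or abundant loci or each library. Leaving out loci that share fragments, GENCODE 44 gene spans and locus calls without exonic loci were added after seeing the data. Whether replicates were separate cultures is given only by the methods, and p-values measure the spread between these libraries.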

Additional observations from a re-analysis of the deposited data

How the results depend on the processing

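The own-strand sum (log2 0.24) overlapped between groups without exonic loci (0.26, exact permutation p = 0.2), without loci that share fragments (0.24, p = 0.2) and relative to TE counts of both strands (0.057, p = 0.5). The opposite-strand sum (0.22) overlapped without exonic loci (0.28, exact permutation p = 0.2) and relative to TE counts (0.043, p = 0.4). The ratio to L1HS and L1PA (-0.092) overlapped with uniquely mapped counts (-0.075), without the 20 most abundant older L1 loci (-0.073), without exonic loci (-0.079) and without loci that share fragments (-0.043). Small ratios turned sign. Own over opposite strand (0.014) became -0.023 without exonic loci and ran from -0.050 to 0.066 with single libraries left out. The ratio to L2 (0.05) became -0.071 without exonic loci and ran from -0.030 to 0.098. Outside over inside genes (0.0043) became -0.0037 without the most abundant loci and -0.039 without exonic loci, and ran from -0.0074 to 0.024. The ratio of L1P to L1M (0.069) ran from 0.024 to 0.095 with single libraries left out. With the replicate block it stayed at 0.069 with an exact permutation p of 0.25, the smallest that 3 pairs can give.

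Called loci numbered 2 as reported, 0 under TMM, opposite-strand scaling or DESeq2's own size factors, 1 with DESeq2 on aligned fragments, 6 with no filter, 4 with uniquely mapped counts, 4 without loci that share fragments, 0 without exonic loci and 0 to 3 with single libraries left out. Without exonic loci both loci, which overlap no exon, kept log2 differences of 1.37 and 2.24, and their adjusted p was 0.0502 each. At an unadjusted p under 0.05, DESeq2's own size factors gave 30 higher and 17 lower. Called subfamilies numbered 1 as reported, 0 under TMM, opposite-strand scaling or DESeq2's own size factors, 2 with no filter, 11 with uniquely mapped counts and 0 to 28 with single libraries left out, where 28 came without the first Z18trunc library. With the replicate block, 4 loci and 0 subfamilies were called. Samples of equal number did not deviate together (r between -0.038 and 0.017), so the numbers were not taken as pairs. Separated loci numbered 1739, and 217 at a minimum of 30 counts.

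Under TMM, opposite-strand scaling and DESeq2's own size factors, in that order, the L1M4c locus in MALAT1 (0.073) turned to -0.11, -0.23 and -0.11, the L1ME4a locus in DENR (0.15) to -0.029, -0.14 and -0.027, subfamily L1ME4a (0.17) to -0.037, -0.12 and -0.043 and subfamily L1M4c (0.16) to -0.050, -0.14 and -0.060. Opposite-strand scaling turned L1M5 (0.25) to -0.040, L1MB7 (0.25) to -0.044 and L1ME1 (0.25) to -0.036. With single libraries left out, the MALAT1 locus ran from -0.19 to 0.30, the ACTN4 locus (-0.073) from -0.16 to 0.029, the chromosome 9 L1M5 locus (-0.028) from -0.093 to 0.038, the MAVS locus (-0.037) from -0.090 to 0.035 and subfamily L1M4c from -0.070 to 0.31. Causes of these shifts were not tested. Depth limits the locus results, since most loci held too few fragments to test.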
